A study of Mus musculus with 104 samples.

Results

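CpG-dense stretches that carried little DNA methylation in the E8.5 mouse head, with or without Kmt2b, were followed in 3 methylation pools. The autosomes 1 to 19 were divided into tiles of 1 kb. A tile was kept when it had at least 30 reads over its CpGs in each pool, at least 50 CpGs, a level of 10% or less in WT heads and a KO minus WT head difference under 20 points. Of 113735 tiles with enough reads, 13857 had 50 or more CpGs, 12450 of these were at 10% or less in WT heads, and 12419 met every condition and are called members here. Members were thus chosen by the WT head level and the head difference, and both are given as descriptions only. The KO epiblast pool entered only through the read minimum.

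The pools held 3 E6.5 epiblast samples of Kmt2b-/- embryos (KO), 2 E8.5 head samples of Kmt2b-/- embryos and 2 E8.5 head samples of WT embryos, and each pool is a single file, so its values have no spread between replicates. RNA of KO and WT embryos was given as 1 merged column per group, from 3 KO and 3 WT epiblast samples at E6.5 and from 2 KO and 3 WT head samples at E8.5. A further set had libraries of 2 Tet1-/-;Tet2-/- (DKO) heads and 2 WT heads at E8.5 and 2 DKO epiblasts. The labels give tissue and genotype but neither how the alleles were made nor how many embryos went into a sample, and crosses were of DBA2 males with C57BL/6N females per the series design. WT epiblast methylation was not analysed here. The KO epiblast and the KO head therefore differ in stage, tissue and library at once, and these cannot be told apart.

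CpG islands are short stretches of high CpG density that overlap many mammalian promoters and usually lack DNA methylation, while most of the genome between them is methylated. Proteins with a CXXC zinc finger bind unmethylated CpGs, and KMT2B is one of them, a methyltransferase that places H3K4me3. This mark hinders the de novo DNA methyltransferases DNMT3A and DNMT3B, which set the methylation of the epiblast after implantation, while TET enzymes oxidize 5-methylcytosine. Genes of housekeeping and of development both commonly start in CpG islands.

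The promoters of 6 members are printed to show the CpG-dense stretches that the results turn on, with each CG in capitals. The first 4 are those with the highest KO epiblast levels among members with a placed start site, and the last 2 belong to developmental regulators that stayed low in all 3 pools. Each is a window from 250 bases before to 50 bases after the start, 5′ to 3′ on the minus strand, from RefSeq on GRCm38.p6. In that build the windows are chr12:101913122-101913421 for Trip11, chr6:131293195-131293494 for Magohb, chr3:62506939-62507238 for Dhx36, chr5:3596498-3596797 for Rbm48, chr1:89931127-89931426 for Gbx2 and chr5:147307200-147307499 for Cdx2.
Trip11: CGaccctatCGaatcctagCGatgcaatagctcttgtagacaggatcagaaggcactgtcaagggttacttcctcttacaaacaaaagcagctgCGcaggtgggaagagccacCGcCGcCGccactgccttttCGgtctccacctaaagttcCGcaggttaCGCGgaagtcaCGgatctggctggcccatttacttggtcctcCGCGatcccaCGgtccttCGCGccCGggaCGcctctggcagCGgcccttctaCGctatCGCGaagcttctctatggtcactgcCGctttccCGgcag
Magohb: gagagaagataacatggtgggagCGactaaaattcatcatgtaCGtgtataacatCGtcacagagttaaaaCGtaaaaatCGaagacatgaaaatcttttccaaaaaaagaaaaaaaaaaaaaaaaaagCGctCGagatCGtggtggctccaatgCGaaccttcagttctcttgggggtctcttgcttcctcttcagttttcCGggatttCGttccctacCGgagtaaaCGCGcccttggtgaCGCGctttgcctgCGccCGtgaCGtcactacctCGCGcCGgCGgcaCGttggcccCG
Dhx36: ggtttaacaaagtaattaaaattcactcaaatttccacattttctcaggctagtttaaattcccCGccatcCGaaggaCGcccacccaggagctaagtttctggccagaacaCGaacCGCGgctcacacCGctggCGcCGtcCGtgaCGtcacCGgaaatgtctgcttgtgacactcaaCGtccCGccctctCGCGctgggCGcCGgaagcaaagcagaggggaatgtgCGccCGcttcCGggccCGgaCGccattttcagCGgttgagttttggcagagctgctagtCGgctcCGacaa
Rbm48: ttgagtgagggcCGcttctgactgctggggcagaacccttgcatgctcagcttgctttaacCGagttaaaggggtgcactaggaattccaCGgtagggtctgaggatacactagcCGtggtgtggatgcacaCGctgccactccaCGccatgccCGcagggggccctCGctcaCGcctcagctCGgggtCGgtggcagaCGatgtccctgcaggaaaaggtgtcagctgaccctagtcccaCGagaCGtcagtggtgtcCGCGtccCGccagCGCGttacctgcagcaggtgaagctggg
Gbx2: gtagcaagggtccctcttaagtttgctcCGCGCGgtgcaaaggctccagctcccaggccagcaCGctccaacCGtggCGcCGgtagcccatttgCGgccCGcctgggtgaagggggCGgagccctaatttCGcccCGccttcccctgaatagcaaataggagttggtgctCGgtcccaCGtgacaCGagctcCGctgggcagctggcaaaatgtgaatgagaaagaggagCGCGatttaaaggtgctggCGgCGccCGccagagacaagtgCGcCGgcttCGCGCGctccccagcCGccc
Cdx2: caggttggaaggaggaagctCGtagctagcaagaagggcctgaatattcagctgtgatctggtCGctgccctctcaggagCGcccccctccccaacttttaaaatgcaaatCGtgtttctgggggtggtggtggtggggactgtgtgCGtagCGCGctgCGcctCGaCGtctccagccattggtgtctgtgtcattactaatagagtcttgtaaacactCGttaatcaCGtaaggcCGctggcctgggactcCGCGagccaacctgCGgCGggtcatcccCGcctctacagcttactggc
These windows hold 25, 25, 26, 19, 27 and 18 CpGs, in the order printed. The median was 27 CpGs in the 8362 distinct promoter windows whose start lies in a member, against 7 in all 32544 distinct RefSeq windows. The median GC content was 66.3% in member windows and 53% in all windows. The GC box GGGCGG, searched on both strands, was in 78.1% of member windows and 35.9% of all windows, and among the 6 printed ones in Dhx36 and Gbx2. The palindrome TGACGTCA, a cyclic AMP response element that shares no overlap with the GC box, was in 3.65% of member windows and 1.80% of all windows, and among the 6 in Magohb and Dhx36. The TATA box TATAAA, searched on both strands, was in 4.50% of member windows and 13.6% of all windows. Members were chosen for 50 or more CpGs, and only windows with at least 10 CpGs were placed, while all windows had no minimum. The differences between member windows and all windows in CpG number, GC content and motifs are thus partly fixed by the choice.

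Low levels in heads are fixed by the choice of members, so they cannot check the label of unmethylated CpG islands. The KO epiblast is of another stage and tissue and cannot check it for heads either. In the KO epiblast most members were low, with 2252 of 12419 (18.1%) at 10% or more. The upper quartile there was 8.04% in members, 10.4% in all CpG-dense tiles and 86.1% in all tiles. Members had a median of 71 CpGs per tile. A start site was placed in 6579 of them, and annotated CpG islands were not used. Over all their CpG reads, 5.94% were methylated in the KO epiblast (Wilson 95% interval 5.91 to 5.97, 2251340 reads), 2.34% in KO heads (2.33 to 2.36, 4523275 reads) and 1.80% in WT heads (1.79 to 1.81, 4852145 reads). The level over all CpGs of the genome was 67.8%, 67.6% and 68.2% in the same order of pools. A read counts once at each CpG it covers, so neighbouring CpGs share fragments, and these intervals cover counting error only and are too narrow.

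The median member was at 4.17% in the KO epiblast, 1.53% in KO heads and 1.21% in WT heads. Its quartiles were 1.89% and 8.04% in the KO epiblast, 0.801% and 2.86% in KO heads, and 0.629% and 2.23% in WT heads. The KO epiblast was above the KO head in 9718 members and below it in 2610, with a median difference of 2.37 points. Both head levels entered the choice of members and the KO epiblast level did not, so the choice itself favours this order. Over all 13857 CpG-dense tiles the medians had the same order, with 4.83% in the KO epiblast, 1.74% in KO heads and 1.38% in WT heads. Over all 113735 tiles the order was reversed, with medians of 75%, 79.2% and 80%. Tiles above and below the KO head were not counted in these 2 wider sets. Between heads the medians of members differed little, and the KO head was above the WT head in 7601 members and below it in 4730, with a median difference of 0.32 points.

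The upper tail was long in the KO epiblast, the pool whose level the choice of members does not limit, while it limits the tails of both heads. A level of 10% or more was reached by 2252 members in the KO epiblast and by 326 in KO heads. A level of 20% or more was reached by 495 members in the KO epiblast, or 3.99% of members, and by 28 in KO heads. The same level was reached in the KO epiblast by 12.3% of all CpG-dense tiles, 78.9% of all tiles and 15.9% of the 10921 tiles at 10% or less in WT heads with fewer than 50 CpGs. No methylated read was seen in 817 members in the KO epiblast, 540 in KO heads and 736 in WT heads, where depth also differed, with medians of 151, 310 and 331 CpG reads per member.

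**Figure D1:**
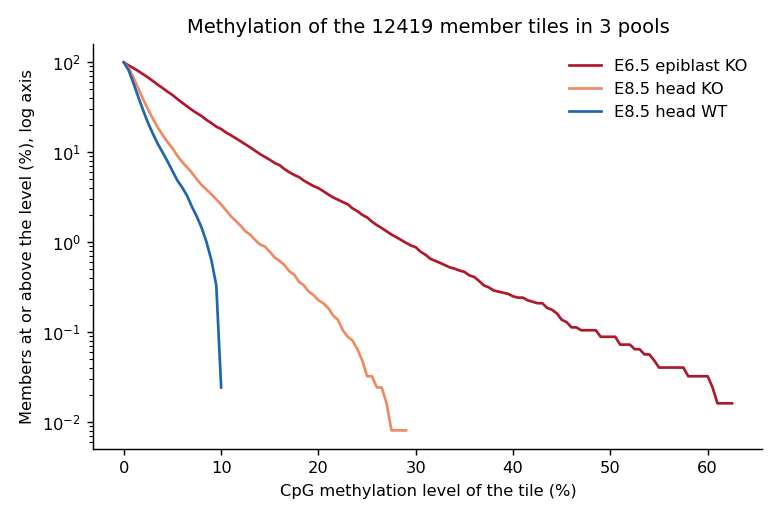
Share of the 12419 members (log axis, %) whose methylation level is at or above the value on the horizontal axis (%), in each of the 3 pools. The KO epiblast curve reaches 62.7%, the KO head curve 29.1%, and the WT head curve ends at 10% by the choice of members.

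Members just at the limits varied in the KO epiblast. Of 3 members at exactly 10% in WT heads, chr13:47109000-47109999 had 50.6% in the KO epiblast and 21.9% in KO heads, chr10:58685000-58685999 had 45.2% and 13.6%, and chr3:88490000-88490999 had 10.3% and 4%. Just outside, the tile holding the start of Snhg9, a small nucleolar RNA host gene, was at 10.0457% in WT heads, with 2.90% in the KO epiblast and 1.85% in KO heads. Beside it, chr5:30440000-30440999 had 9.81% in the KO epiblast and 4.29% in KO heads, and chr17:29459000-29459999 had 24.6% and 28.6%. The member nearest the limit on the head difference, at Naa30, which encodes a catalytic subunit of an N-terminal acetyltransferase, had 8.11% in the KO epiblast, 19.8% in KO heads and 0 of 171 reads in WT heads, which allows up to 1.75%. The next 2 members, chr8:86716000-86716999 and chr7:17532000-17532999, had 16.9% and 21.4% in the KO epiblast. The first tile beyond that limit, at 4930447C04Rik, had 30.5% in the KO epiblast, 25.4% in KO heads and 5.29% in WT heads. Gm9257 and Tdrkh, a piRNA pathway gene, followed with 9.59% and 10% in the KO epiblast. The 31 CpG-dense tiles beyond the limit had medians of 33.3% in the KO epiblast, 33.6% in KO heads and 6.82% in WT heads.

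A small set of members stood well above the rest in the KO epiblast. Of the 12419 members, 220 were at least 20 points higher in the KO epiblast than in KO heads with Wilson intervals apart, a call made without replicates. That is 1.77% of members, against 2.06% of CpG-dense tiles, 3.05% of all tiles and 6.27% of the low tiles with fewer than 50 CpGs. The share in members is thus no larger than the background. In the opposite direction the call was made for 0 members, for 0.707% of CpG-dense tiles and for 4.51% of all tiles. The choice of members left almost no room for that call, since only 28 members were at 20% or more in KO heads. Against WT heads, 305 members were called higher in the KO epiblast, or 2.46% of members, against 3.25% of CpG-dense tiles and 3.45% of all tiles.

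**Figure D2:**
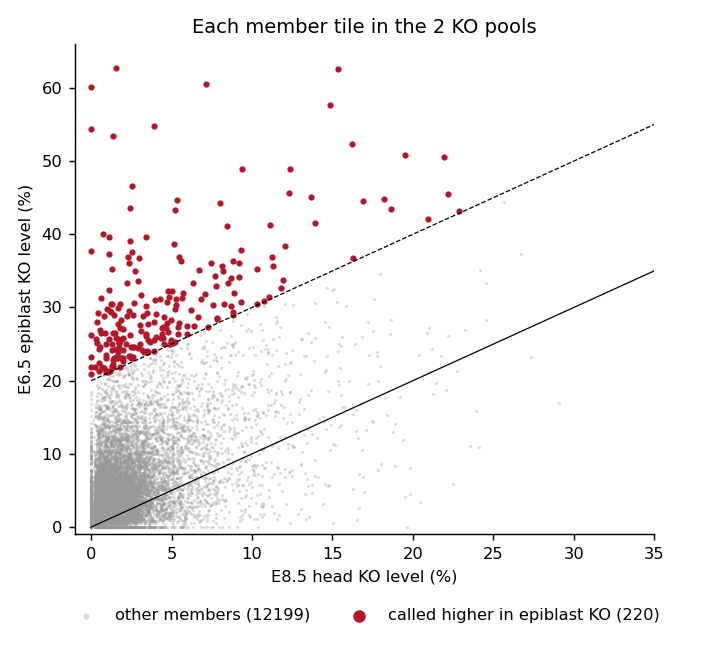
Methylation level of each member in the KO epiblast (vertical, %) against the KO head (horizontal, %). The solid line marks equal levels and the dashed line 20 points more in the epiblast. The 220 called members (red) lie above the dashed line, at 21.0% to 62.7% in the KO epiblast.

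The 220 called members had a median of 28.8% in the KO epiblast, 3.42% in KO heads and 2.70% in WT heads. Their share was smaller in denser and in deeper members. It was 3.12% among members with 50 to 59 CpGs and 0.711% among those with 100 to 149, and 1 of the 90 members with more CpGs was called. It was 4.13% among members with 30 to 99 KO epiblast reads, 1.49% with 100 to 199 and 0.577% with 200 or more. Called members had a median of 102 KO epiblast reads over 45 covered CpGs, and the members not called 152 reads over 58 covered CpGs.

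Reads of the plus and minus strands were also taken separately. Of the 220 called members, 205 had at least 10 reads on each strand in each pool, and in 58 of these (28.3%) the KO epiblast was at least 20 points above the KO head on both strands. The 58 include Trip11, Dhx36, 2310057M21Rik and Frmd4b. In the rest the difference of 20 points stood on 1 strand or on neither.

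The tile with the highest KO epiblast level, chr13:23488000-23488999, had 42 of 67 CpG reads methylated in the KO epiblast (62.7%, Wilson 50.7 to 73.3), 2 of 131 in KO heads (1.53%) and 2 of 208 in WT heads (0.962%). Its strands were at 71.4% and 38.9% in the KO epiblast. Next came chr2:102240000-102240999, with 62.6% in the KO epiblast, 15.3% in KO heads and 6.93% in WT heads, and chr4:146230000-146230999, with 60.5%, 7.14% and 3.44%. The last had 90.0% on the minus and 27.8% on the plus strand in the KO epiblast, from 20 and 18 reads. Of the other members among the 10 highest, 4 also had no placed start site, chr11:79067000-79067999 with 54.7% in the KO epiblast, 3.92% in KO heads and 2.09% in WT heads, chr11:118769000-118769999 with 53.4%, 1.33% and 1.86%, chr1:93697000-93697999 with 52.3%, 16.2% and 6.99%, and chr1:173003000-173003999 with 50.8%, 19.5% and 8.33%.

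Trip11 encodes a Golgi-associated coiled-coil protein. Its tile, chr12:103151000-103151999 on mm9, had 71 of 118 CpG reads methylated in the KO epiblast (60.2%, Wilson 51.2 to 68.5), 0 of 130 in KO heads, which allows up to 2.31%, and 8 of 214 in WT heads (3.74%). The KO epiblast thus stood far above both heads. Both strands were high in the KO epiblast, at 69.4% and 53.6%. Within 250 bases before the start 25 of 34 reads were methylated in the KO epiblast, 0 of 33 in KO heads and 1 of 21 in WT heads.

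Dhx36 encodes a helicase that unwinds G-quadruplexes. Its tile, chr3:62310000-62310999, had 50 of 92 CpG reads methylated in the KO epiblast (54.3%, Wilson 44.2 to 64.1), 0 of 94 in KO heads, which allows up to 3.19%, and 3 of 288 in WT heads (1.04%). The methylated reads of the KO epiblast lay on both sides of the start, with 76.7% in the 250 bases before it, 30.4% in the 250 bases after it and 69.7% in the next 250. In KO heads the same windows had 2.38%, 0% and 0%.

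Rbm48 encodes an RNA-binding protein of the minor spliceosome. Its tile, chr5:3596000-3596999, had 84 of 193 CpG reads methylated in the KO epiblast (43.5%, Wilson 36.7 to 50.6), 6 of 249 in KO heads (2.41%) and 5 of 404 in WT heads (1.24%). The strands differed in the KO epiblast, with 64.2% on the minus and 16.7% on the plus strand. In the 250 bases before the start 16 of 21 reads were methylated in the KO epiblast, 1 of 11 in KO heads and 1 of 46 in WT heads. In the 250 bases before those the counts were 21 of 21, 10 of 19 and 1 of 10.

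Magohb encodes a core protein of the exon junction complex. Its tile, chr6:131243000-131243999, had 30 of 52 CpG reads methylated in the KO epiblast (57.7%, Wilson 44.2 to 70.1), 15 of 101 in KO heads (14.9%) and 2 of 129 in WT heads (1.55%). Over the whole tile, it was the one of these 4 with a raised level in KO heads too. In the 250 bases before the start, 8 of 14 reads were methylated in the KO epiblast, 9 of 26 in KO heads and 1 of 40 in WT heads. In the 250 bases after the start the counts were 22 of 36, 2 of 64 and 0 of 85. The KO epiblast value rests almost wholly on the plus strand, since 4 of its 52 reads were on the minus strand.

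**Figure D3:**
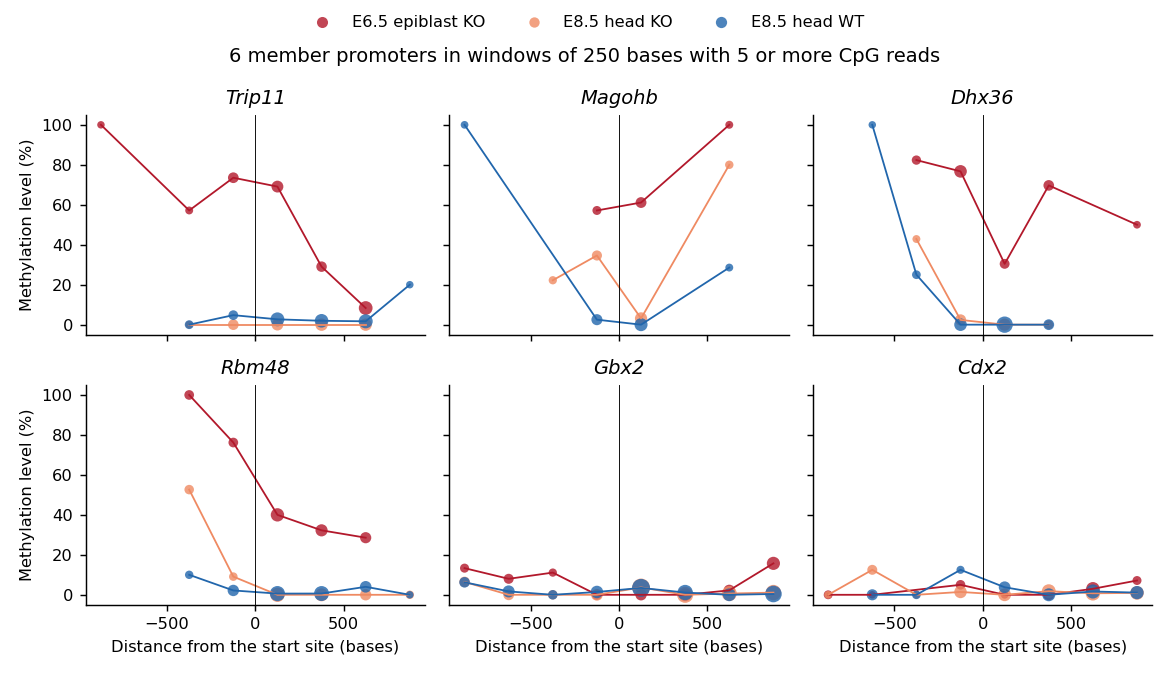
Methylation level (vertical, %) in windows of 250 bases around the start site (horizontal, bases) for the 6 printed promoters, by pool. Larger points have more CpG reads, and windows under 5 reads are left out. The KO epiblast is above both heads near the start of Trip11, Magohb, Dhx36 and Rbm48, while at Gbx2 and Cdx2 all 3 pools are at or below 15.7%.

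Levels in every pool were lowest close to the start site. Only starts inside members were taken, so the low levels of both heads near the start follow from the choice of members. Over all 8362 start windows in members, the 500 bases before the start were at 5.02% in the KO epiblast, 1.94% in KO heads and 1.52% in WT heads, and the 500 bases after it at 4.67%, 1.41% and 1.12%. Levels climbed with distance, to 42.1%, 38.6% and 38.02% between 1 and 2 kb before the start and 57.9%, 57.5% and 57.6% between 2 and 3 kb. Between 2 and 3 kb the pools thus differed by under 1 point. For the 139 starts in called members, the 500 bases after the start were at 26.7%, 2.89% and 2.07%, which the call itself fixes, and the window 2 to 3 kb before the start was at 68.9%, 67.1% and 69.2%.

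**Figure D4:**
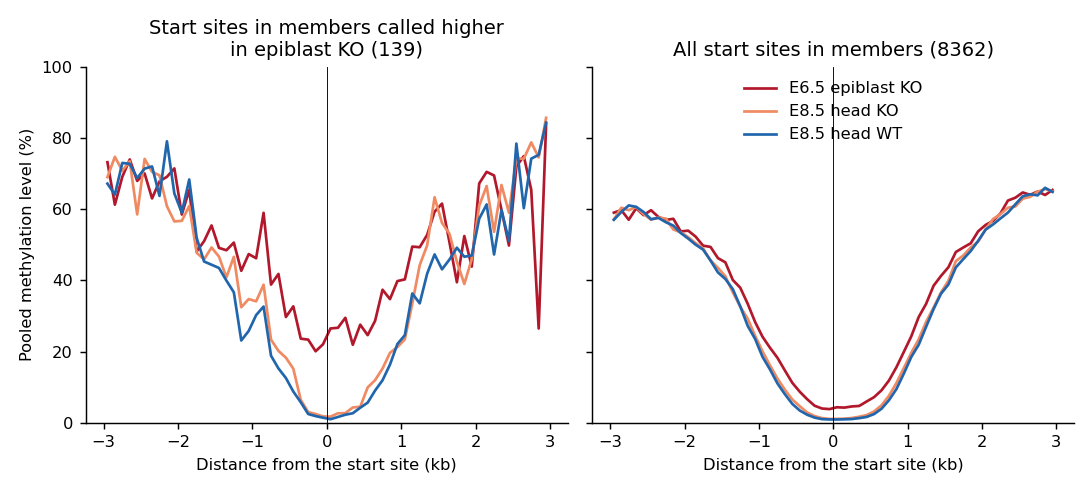
Pooled methylation level (vertical, %) in windows of 100 bases by distance from the start site (horizontal, kb), for the starts in called members (left) and all starts in members (right). On the right the 100 bases before the start are at 3.84% in the KO epiblast, 1.09% in KO heads and 0.941% in WT heads.

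Most runs of members were a single tile. Members formed 9915 runs of adjacent tiles, of which 7758 were a single tile and 2 reached 6 tiles. Tiles 1 kb away from a run had medians of 29.8% in the KO epiblast, 23.8% in KO heads and 21.2% in WT heads. Tiles 2 kb away had 72.9%, 76.8% and 77.6%, and tiles 10 kb away 78.9%, 82.7% and 83.3%. The KO epiblast median was thus above both heads inside the members and 1 kb away, and below both from 2 kb on. Pooled over reads, the tiles 2 kb away were instead slightly higher in the KO epiblast, at 59.6%, than in KO heads, at 59.1%, and WT heads, at 59.3%.

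The longest runs were low in all pools. One, of 6 tiles and 438 CpGs at chr8:94879000-94884999, holds the start of Crnde, a long noncoding RNA gene, and had 3.42% in the KO epiblast, 0.887% in KO heads and 1.03% in WT heads. The other, of 401 CpGs at chr14:70474000-70479999, had 2.85%, 1.02% and 1.01%. A run of 5 tiles at Pou3f3, a neural POU factor gene, had 5.30%, 1.08% and 0.866%, and one at Brd2, a bromodomain protein gene, had 2.36%, 0.568% and 0.785%. The fifth, at chr5:111845000-111849999, had 3.30%, 3.19% and 1.86%.

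In the 5 most CpG-rich members the KO epiblast was the highest pool and above the member median of 4.17%. The 90 members with 150 or more CpGs had a median of 5.65% in the KO epiblast, the highest of the 5 classes of CpG number, with 1.03% in KO heads and 0.777% in WT heads. Ranbp9, which encodes a scaffold protein, lies in the tile with the most CpGs, 183, and had 6.51% in the KO epiblast, 1.42% in KO heads and 0.817% in WT heads. Med13l, a Mediator kinase module gene, had 7.76%, 0.812% and 0.615%, and Jag2, a Notch ligand gene, 7.34%, 1.19% and 0.728%. The 2 others had no placed start, with 12.7%, 4.20% and 0.671% at chr2:179710000-179710999 and 5.08%, 0.682% and 0.261% at chr8:124176000-124176999.

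A few members held far more reads than the others. In 8 members on chromosomes 16 and 17 a pool had over 3000 reads, up to 45542, and together they were at 11.9% in the KO epiblast, 9.52% in KO heads and 7.57% in WT heads. Without them the members were at 5.59%, 2.08% and 1.57%, and 220 were called.

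Promoters were then read by the role of their genes, from lists chosen with earlier results of these data known. Of the members with a start site 1.58% were called, so that counts of 0 or 1 in lists this short carry no information on the list. Members held the starts of 6 genes of H3K4 methylation and CXXC proteins, and 0 of them was called. Kmt2a, the closest relative of Kmt2b, had 1.76% in the KO epiblast, 1.10% in KO heads and 1.72% in WT heads. Kdm2b, a CXXC demethylase gene, had 2.67%, 1.71% and 0.134%, Setd1a, another H3K4 methyltransferase gene, 1.26%, 3.04% and 0.186%, and Wdr5, a shared subunit gene, 3.47%, 0.957% and 0.475%. The list's median was 2.20% in the KO epiblast, below the member median.

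Genes of DNA methylation itself had 8 starts in members and 0 calls, with KO epiblast levels of 0% to 11.8%. Dnmt3a had 9.05% in the KO epiblast, 2.52% in KO heads and 0.709% in WT heads. Dnmt3b had 2.90%, 1.72% and 0.341%, and Tet2 3.65%, 1.62% and 0.936%. Uhrf1, which recruits DNMT1 to replicating DNA, had 0 of 164 methylated reads in the KO epiblast, which allows up to 1.83%, with 0.682% in KO heads and 0.783% in WT heads. The highest of the list was Mbd3, a NuRD subunit gene, with 20 of 170 reads (11.8%), 1.68% and 1.82%.

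Housekeeping genes had 5 starts in members, at 0.877% to 3.44% in the KO epiblast and 0 calls. Eef2, the translation elongation factor 2 gene, had 3.44% in the KO epiblast, 0.149% in KO heads and 0.935% in WT heads. Polr2a, the gene of the largest subunit of RNA polymerase II, had 0.877%, 0.727% and 1.43%. Ppia, the cyclophilin A gene, had 3.40%, 6.03% and 2.96%, and Sdha, a mitochondrial complex II gene, 2.59%, 1.82% and 1.49%.

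Forebrain and neural regulators had 13 starts in members, with a median of 2.02% in the KO epiblast, 0.972% in KO heads and 1.42% in WT heads and 0 calls. Gbx2, a hindbrain homeobox gene, had 0.505%, 1.71% and 2.20%, Pax2 0.971%, 0.972% and 0.307%, and Irx3 0.461%, 0.726% and 0.450%. Sox1, a neural plate gene, had 4.44%, 0.446% and 2.38%. The highest was Fezf2, a forebrain zinc finger gene named after its value was seen, with 28 of 157 reads methylated in the KO epiblast (17.8%), 0.858% in KO heads and 1.47% in WT heads. All 28 were on the plus strand, which was at 27.7%, while 0 of 56 minus-strand reads were methylated.

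Regulators of other lineages had 6 starts in members and 0 calls. Cdx2, a trophectoderm and hindgut factor gene, had 2.91% in the KO epiblast, 0.917% in KO heads and 1.63% in WT heads. T, the brachyury gene of the primitive streak, had 1.12%, 0.763% and 1.12%, and Foxa2, an endoderm factor gene, 1.48%, 2.26% and 0.450%. Foxa1, its paralogue, had 1.05%, 1.61% and 1.69%. Eomes, a streak T-box gene and the list's highest, had 5 of 43 reads methylated in the KO epiblast (11.6%), 0.855% and 0.948%.

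Of 11 Hox starts in members 1 was called, against the 1.58% of all members with a start. Hoxa13, a posterior Hox gene, had 107 of 492 reads methylated in the KO epiblast (21.7%), 5 of 605 in KO heads (0.826%) and 23 of 968 in WT heads (2.38%), with 33.9% on the minus and 11.1% on the plus strand in the KO epiblast. Hoxd11 had 3.92%, 1.76% and 2.52%, Hoxd13 5.07%, 1.83% and 1.32%, and Hoxa10 12.1%, 1.12% and 1.14%. The median of the list was 3.92% in the KO epiblast, close to that of all members.

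Germline genes, many of which are silenced by promoter methylation after implantation, had 7 starts in CpG-dense tiles, of which 1 lay in a member, while 12419 of all 13857 CpG-dense tiles were members. It was Stag3, a meiotic cohesin gene, with 13.2% in the KO epiblast, 5.70% in KO heads and 4.92% in WT heads. Of 7 imprinted genes in CpG-dense tiles 4 were in members and 0 were called. Grb10, a growth factor receptor adaptor gene, had 9.32%, 2.37% and 1.14%, and Igf2r, a clearance receptor gene for IGF2, 10.8%, 8.04% and 2.42%. Gnas, a G protein subunit gene, had 4.18%, 1.82% and 1.57%, and Igf2, a growth factor gene, 2.44%, 2.26% and 0.469%. Pluripotency genes had 3 starts in members, all under 5% in the KO epiblast, with Klf4 at 1.72%, Fgf5 at 4.55% and Lin28a at 0.483%.

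RNA of the genes starting in members was compared between KO and WT, a readout the choice of members did not use. Kmt2b, listed as Wbp7, had 0.308 FPKM in KO and 0.701 in WT epiblasts and 0.133 in KO and 0.600 in WT heads, under 1 FPKM in each. A total of 6705 listed genes started in members. Of these, 74.7% had at least 1 FPKM in KO heads and 74.7% in WT heads, against 44.5% of all listed genes in each. The KO columns had a median of 5.41 FPKM for member genes in the epiblast and 5.45 in heads, and of 0.470 for all genes. The columns had been brought to 1 distribution, so the equal values over all genes are set by that step.

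Member promoters were lower in methylation in the KO epiblast the more their gene was expressed there. In the KO epiblast, the 702 genes under 0.1 FPKM had a median promoter level of 6.57%, those at 0.1 to 1 FPKM 4.92%, at 1 to 10 FPKM 3.81%, and the 2603 genes at 10 FPKM or more 2.98%. In KO heads the same 4 classes of KO head RNA had medians of 2.00%, 1.62%, 1.31% and 1.29%, nearly equal from 1 FPKM up. The KO head level entered the choice of members, so these medians are descriptions only. In WT heads the medians of those classes were 1.44%, 1.18%, 1.06% and 1.07%. The called share over the same classes of KO epiblast RNA was 3.85%, 2.14%, 1.39% and 0.653%.

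Few member genes differed at least 2-fold on the log2(FPKM + 1) scale, which makes differences of low genes smaller. In the epiblast 54 of 5134 genes above the low-value filter were higher in KO (1.05%, against 1.09% of all 10499 genes) and 19 were lower (0.37%, against 0.629%). In the head 73 were higher (1.42%, against 2.13%) and 78 lower (1.52%, against 2.27%). Each column merges replicates, so these are sizes with no test, and their number moves with the pseudocount, from 28 to 149 higher and from 21 to 143 lower in the head and from 17 to 125 higher and 3 to 59 lower in the epiblast.

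Genes that were lower in KO heads had more methylated promoters in the KO epiblast, a comparison added after the data were seen and given with no test. Of the 78 member genes at least 2-fold lower in KO heads, 30 (38.5%) had a promoter tile at 10% or more in the KO epiblast, against 8 of 73 higher genes (10.96%) and 588 of the 4983 others (11.8%). Over 6 other choices of pseudocount, filter, tile and depth the share ran between 32.9% and 47.6% for lower genes and between 5.66% and 14.3% for higher genes. Median KO epiblast levels were 6.94% for the lower genes, 2.63% for the higher and 3.33% for the others. In KO heads the medians of the same groups were 2.31%, 1.49% and 1.30%, and in WT heads 1.30%, 1.18% and 1.07%. In expression, the lower genes had a median of 7.37 FPKM in the higher column, the higher genes 15.2 and the others 11.6, and the part of expression level was not tested.

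Read the other way, the share of genes lower in KO heads climbed with the KO epiblast level of the promoter. It was 0.841% of the 3331 genes under 5%, 2.46% of the 1709 genes at 5 to under 20% and 8.51% of the 94 genes at 20% or more, while the shares higher in KO heads were 1.44%, 1.35% and 2.13%. Among genes with 10 FPKM or more in the higher column the lower shares were 0.532%, 2.30% and 13.2%, and among the rest 1.24%, 2.61% and 5.36%. The higher shares of the same classes were 1.54%, 1.33% and 5.26% at 10 FPKM or more, the last from 2 of 38 genes, and 1.31%, 1.36% and 0% among the rest. In the epiblast the lower shares were 0.24%, 0.527% and 2.13%, the last from 2 genes. The order of the 3 shares was the same in both expression classes of the head, where the classes at 20% or more held 5 and 3 lower genes.

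**Figure D5:**
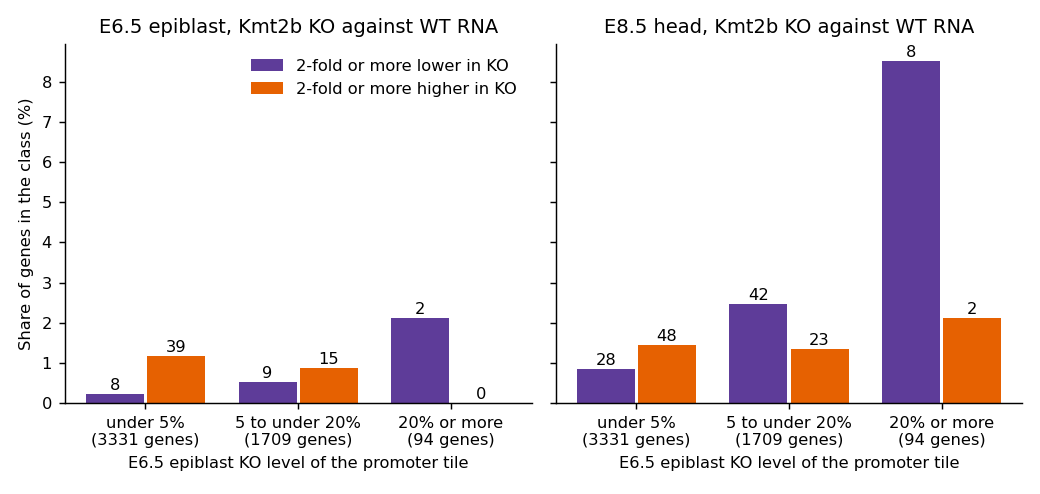
Share of genes (vertical, %) at least 2-fold lower (purple) or higher (orange) in Kmt2b KO than in WT RNA, by the KO epiblast methylation level of the member tile that holds their start (horizontal), for the E6.5 epiblast and the E8.5 head. Numbers over the bars are genes. In the head, 8 of 94 genes with promoters at 20% or more are lower in KO, against 28 of 3331 with promoters under 5%.

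For the 53 expressed genes with a called promoter, RNA was lower in KO than in WT in 39 in the epiblast, with a median log2 difference of -0.19, and in 33 in the head, with -0.11. Over all tested genes 52.2% were below 0 in the epiblast, with a median of -0.02, and 50.1% in the head. Of these 53, 1 was at least 2-fold lower and 0 higher in the epiblast, and 4 were lower and 1 higher in the head, where 2.27% of all genes were lower and 2.13% higher. Of the 13 expressed genes whose promoters were higher on both strands, 9 were below 0 in the epiblast and 7 in the head.

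Magohb had the largest difference of all member genes in the head. Its RNA was listed at 0 FPKM in KO heads and at 63.9 in WT heads, and was 40.5 FPKM in KO and 93.5 in WT epiblasts (log2 difference -1.19). The other 3 promoters with the highest KO epiblast levels moved less. Dhx36 had 7.05 FPKM in KO and 14.0 in WT heads (-0.90) and 11.3 in KO and 14.3 in WT epiblasts (-0.32). Trip11 had 0.826 in KO and 1.29 in WT heads and 1.10 in KO and 0.964 in WT epiblasts, and Rbm48 8.23 in KO and 9.12 in WT heads and 8.67 in KO and 12.5 in WT epiblasts.

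After Magohb, the largest drops in KO heads were at genes whose promoters were mostly above the member median in the KO epiblast. Ube2cbp had 0.280 FPKM in KO and 9.91 in WT heads (-3.09), with a promoter at 11.3% in the KO epiblast, 6.23% in KO heads and 1.94% in WT heads. Moap1, a modulator of apoptosis gene, had 0.0151 FPKM in KO and 5.29 in WT heads (-2.63), with a promoter at 28.8%, 2.25% and 4.80%. 2210016F16Rik had 1.13 and 11.8 FPKM (-2.58), with a promoter at 18.4%, 12.4% and 6.78%.

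Mbnl1, a splicing regulator gene, had 0.597 FPKM in KO and 5.84 in WT heads (-2.10), with a promoter at 11.9% in the KO epiblast, 2.91% in KO heads and 0.786% in WT heads. Elovl2, a fatty acid elongase gene, had 1.84 and 10.1 FPKM (-1.97), with 12.9%, 4.02% and 3.60%. Elovl2 and Magohb are on a list of genes that earlier results of these samples had shown as lower in KO, so their direction is no independent evidence. Fez1, a neuronal transport adaptor gene, had 2.59 and 11.7 FPKM (-1.82), with 22.8%, 7.59% and 0%, and Rgs2, a regulator of G protein signalling, 1.18 and 6.59 FPKM (-1.80), with 19.1%, 2.17% and 1.31%.

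Pax6, a forebrain and eye regulator gene, was the exception among the 10 lowest, with 4.59 FPKM in KO and 19.5 in WT heads (-1.88) and a promoter at 2.02% in the KO epiblast, 0.625% in KO heads and 1.66% in WT heads. Hist1h4c, a histone gene whose copies can share reads, had 9.06 and 33.8 FPKM (-1.79), with a promoter at 11.8%, 2.00% and 2.40%. Its RNA differed the other way in the epiblast, with 35.2 FPKM in KO and 8.30 in WT, and the change between stages was not tested. Among the 13 neural regulators 9 passed the filter in the head, of which 2 were at least 2-fold lower in KO, Pax6 and Lhx2, and 1 was higher, Irx3, with 10.4 FPKM in KO and 4.70 in WT heads. Lhx2, a forebrain LIM factor gene, had 1.77 FPKM in KO and 7.68 in WT heads with 0 of 114 methylated promoter reads in the KO epiblast, which allows up to 2.63%. Fezf2 was under the filter, with 0.371 FPKM in KO and 2.13 in WT heads.

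The 10 genes with the largest rises in KO heads had promoters at 0% to 20.2% in the KO epiblast, on both sides of the member median of 4.17%. Hnrnpd, an RNA-binding protein gene, had 22.9 FPKM in KO heads and was listed at 0 in WT heads, with a promoter at 10% in the KO epiblast, 2.38% in KO heads and 1.89% in WT heads. Coch, a secreted inner ear protein gene, had 26.2 FPKM in KO and 4.03 in WT heads (2.44), with a promoter at 7.21% in the KO epiblast, 0.716% in KO heads and 0.795% in WT heads. Cyp26a1, a retinoic acid degrading enzyme gene, had 36.0 and 7.58 FPKM (2.11), with 2.33%, 1.08% and 1.67%. In the epiblast it differed the other way, with 6.17 FPKM in KO and 17.4 in WT, and the change between stages was not tested. Crnde, listed as 4933436C20Rik and lying in the longest run, had 13.1 and 2.68 FPKM (1.94).

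Sord, the sorbitol dehydrogenase gene, had 7.79 FPKM in KO and 1.32 in WT heads (1.92), with a promoter at 10.3% in the KO epiblast, 0% in KO heads and 0.538% in WT heads. Ror1, a Wnt receptor gene, had 9.62 and 2.10 FPKM (1.78), with 5.79%, 2.37% and 1.79%, and Sc4mol, a cholesterol synthesis gene, 59.5 and 16.8 FPKM (1.76), with 7.79%, 0.562% and 0.702%. The ribosomal protein genes Rps18 and Rpsa, whose reads pseudogenes can share, had 229.5 and 212.7 FPKM in KO heads and 63.2 and 66.2 in WT heads, with promoters at 0% and 20.2% in the KO epiblast. Cbs, a transsulfuration enzyme gene, had 5.68 FPKM in KO and 1.15 in WT heads (1.63), with a promoter at 2.94%, 5.15% and 0.535%.

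Summed markers of several cell types differed between KO and WT heads. The 5 neural markers summed to 78.0 FPKM in KO and 119.6 in WT heads, the 5 heart markers to 107.3 and 83.4, and the 3 embryonic globins to 4.88 and 97.7. Most of the neural sum was Otx2, also an epiblast marker here, with 62.8 FPKM in KO and 87.4 in WT heads. Pax6 had 4.59 and 19.5, Sox1 1.70 and 3.49, and Sox2 8.25 and 8.30. In the epiblast the 5 visceral endoderm markers summed to 0.510 in KO and 0.557 in WT, and the 4 epiblast markers to 1375 and 1049. In such bulk samples fewer cells of a type and less RNA per cell cannot be told apart. The part of these shifts in the differences above was not tested.

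Loss of Tet1 and Tet2 was compared in heads with limma on libraries. Of 5309 tested genes with a member promoter, 11 were higher in DKO than in WT heads (0.207%, against 0.258% of all 10867 genes) and 8 lower (0.151%, against 0.175%), at an adjusted p under 0.05 from limma with Benjamini-Hochberg adjustment. Cell type markers differed between these libraries too, with the 5 heart markers summing to 7.60 and 4.85 FPKM in DKO heads, against 28.3 and 185.8 in WT heads, and the 3 embryonic globins to 375.7 and 4.45 in DKO heads, against 0.215 and 0 in WT heads. The 5 neural markers summed to 115.8 and 118.3 in DKO heads and 135.1 and 104.7 in WT heads, and the part of these markers in the calls was not tested. Hmgn2, a nucleosome-binding protein gene, had 874.6 and 852.5 FPKM in DKO heads, against 187.3 and 194.4 in WT heads (log2 difference 2.17, SE 0.06, limma adjusted p = 0.0003893). Scoc, an autophagy gene, had 99.5 and 101.7 FPKM in DKO and 28.4 and 35.1 in WT heads (1.64, SE 0.13). Ube2t, a ubiquitin-conjugating enzyme gene of crosslink repair, was higher by 1.95 (SE 0.24), and 5730507C01Rik by 2.12. The histone gene Hist1h2an, whose copies can share reads, was higher by 2.01. Among related histone genes, Hist1h2ai was also higher (1.36), while Hist1h2ag was lower (-2.96).

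Among the genes lower in DKO heads, Rbm45, an RNA-binding protein gene, had 4.31 and 6.70 FPKM in DKO heads and 36.2 and 35.6 in WT heads (-2.53, SE 0.20, limma adjusted p = 0.01105). Cap1, an actin regulator gene, had 15.8 and 19.2 in DKO and 76.3 and 85.4 in WT heads (-2.15, SE 0.14). Mtfr2, a mitochondrial fission regulator gene, had 1.25 and 0.753 in DKO and 9.38 and 6.53 in WT heads (-2.15, SE 0.23). Hist1h2ag and Rps3a1, of families whose copies can share reads, had log2 differences of -2.96 and -2.16.

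Of the 57 tested genes whose promoter was called higher in the Kmt2b KO epiblast, 0 were called in DKO heads by limma, with 10 at an unadjusted limma p under 0.05 and a median log2 difference of 0.0081. Over all 10867 genes 28 were called higher, 19 lower, and 1831 were at an unadjusted p under 0.05, and the median was -0.02. Magohb had 65.9 and 67.5 FPKM in DKO heads and 50.7 and 67.1 in WT heads (0.19, SE 0.15). With 2 libraries a group the calls are fragile, since leaving out any 1 of the 4 head libraries left 1 to 5 higher and 1 to 3 lower member genes. The labels do not say that libraries came from separate embryos, so these p-values measure the spread between the libraries only.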

How the data were processed

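Methylation was read from the files deposited by the authors, whole-number counts of methylated and unmethylated reads per CpG and strand for 21342492 CpGs on mm9, with 1 file per group that pools its replicates per the labels. The submitters' processing notes list BS-Seeker2 and Trim Galore without their roles, and the labels' protocols give STEM-seq, bisulfite sequencing adapted to few cells. Pools held 29138288 (KO epiblast), 42047812 (KO head) and 45262929 (WT head) CpG reads, or 1.37, 1.97 and 2.12 per CpG. Reads were summed per tile of 1000 bases, with Wilson 95% intervals, and no test was possible with 1 value per group. PCR copies were not marked, so intervals and the limits a count of 0 allows (3 counts) cover counting error only.

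Genes were linked to tiles by the spacing of CpGs. Of 32851 RefSeq promoter windows (GRCm38.p6), 14281 had at least 10 CpGs, and 14166 of these matched the CpG positions of the deposited files at 1 place, 73 at several and 42 at none. Windows on chromosome 18 were not used here. Of 11863 symbols with a placed autosomal window, 10168 were in the Kmt2b table and 10186 in the Tet1/2 table. A gene with several starts takes its tile with the highest KO epiblast level.

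RNA values were the FPKM deposited by the authors, from Smart-seq2 libraries per the labels' protocols. TopHat2 (2.0.11) and Cufflinks (2.0.2) are among the tools in the submitters' processing notes. Sorted columns matched within 0.507% in the Kmt2b table and 0.141% in the Tet1/2 table at 1 FPKM or more, so they had been brought to 1 distribution, and read depth is unknown. Differences are of log2(FPKM + 1) over genes with 1 FPKM in 2 columns. The Kmt2b table has merged columns and no test. Its 27 names turned into dates were left out. Across both tables, 7 columns were not used, among them E9.5, planned but dropped since its KO column name carries another tissue code. For the Tet1/2 heads, limma 3.58.1 (R 4.3.3) gave two-sided moderated tests with an intensity trend. A gene was called at an adjusted p under 0.05 after Benjamini-Hochberg correction over all tested genes, and the DKO epiblasts were in the fit for the spread. The tile call and the limma fit were run on simulated data with large planted changes. The simulated reads were independent, while neighbouring CpGs share fragments in the data. These runs check the code and do not give the error rate of the real calls.

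The members, gene lists and tests were chosen with earlier results of these data known. Named were, by rule, the 5 members with the most CpGs, the 5 longest runs, the 10 highest in the KO epiblast, those next to the limits, up to 4 genes per list, up to 10 genes in each direction in KO heads at 5 FPKM or more, and up to 5 in each direction in DKO heads. Genes named beyond it were chosen after their values were seen.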

Additional observations from a re-analysis of the deposited data

How the results depend on the processing

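The pooled KO epiblast level of members, 5.94%, stayed between 5.21% and 6.32% under every alternative run. It was 5.90% with a read minimum of 60, 6.28% with at least 40 CpGs, 5.72% with at least 60, 5.21% and 6.32% with WT heads at 5% or less and 20% or less, 5.87% with KO minus WT heads under 10 points, 6.03% as a mean over CpGs, 5.77% and 6.02% from plus and minus strands alone, and 5.59% without the members over 3000 reads. The 220 members called higher in the KO epiblast than in KO heads became 408 with at least 40 CpGs, 117 with at least 60, 351 with the mean over CpGs, 435 and 449 on plus and minus strands alone, 1262 at 10 points, 40 at 30 points, 58 when both strands had to differ and 21 among members with 200 or more KO epiblast reads. The 495 members at 20% or more became 897 with at least 40 CpGs, 272 with at least 60, 2252 at 10%, 109 at 30% and 64 with 200 or more reads. The settings on both strands, on 200 reads and on members over 3000 reads were chosen after seeing the data.

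With pseudocounts of 0.1 and 5, 125 and 17 genes were at least 2-fold higher and 59 and 3 lower in KO epiblasts, and 149 and 28 higher and 143 and 21 lower in KO heads. In DKO heads, leaving out 1 library left 1 to 5 higher and 1 to 3 lower genes. With the replicate block 7 were higher and 7 lower, against 11 and 8 without it. DKO and WT heads share only a number (correlation of deviations 0.0611 over the same numbers). The planned E9.5 comparison was not run. The cause of the changes was not tested. Depth limits single tiles, since a called member rests on a median of 102 KO epiblast reads.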
